A study of Mus musculus with 6 samples.

Results

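Genes that mark mast cells, basophils and eosinophils, 10 in all, were followed by RNA-seq in HOXA9-immortalized granulocyte-macrophage progenitors (iGMPs). They are defined by their symbols in the deposited count lists, not by a threshold on their values, and were picked with earlier results of these data known. All 10 were found among 34199 gene symbols, and 9 passed the expression filter that left 12460 genes for testing. Gata2 encodes a transcription factor of mast cell and basophil progenitors, and Fcer1a and Ms4a2 encode subunits of the high-affinity IgE receptor. Hdc encodes the enzyme that makes histamine. Cpa3, Mcpt8, Prss34 and Cma1 encode secretory granule proteases, and Epx and Prg2 encode granule proteins of eosinophils.

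Mast cells, basophils and eosinophils are granulated cells of allergic and antiparasite responses, and they arise in the bone marrow beside the neutrophil and monocyte lineages, from progenitors in which GATA factors are active. Mast cells and basophils store histamine and proteases and release them when antigen crosslinks IgE on its high-affinity receptor, a complex of an IgE-binding alpha chain, a signal-amplifying beta chain and a signalling gamma chain. Eosinophil granules hold eosinophil peroxidase, major basic protein and RNases, and their precursors respond to interleukin 5.

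The iGMPs were derived from C57Bl/6 mouse bone marrow carrying a green fluorescent protein reporter driven by the Lysozyme promoter. A fusion of HOXA9 to an estrogen receptor domain keeps them self-renewing in estradiol and stem cell factor (SCF), the ligand of KIT. The 3 groups, of 2 libraries each, were collected at 24 h. CAF-1 OFF cells received 500 µM IPTG, which turns on a short hairpin RNA against Chaf1b, a subunit gene of the histone chaperone CAF-1. Control cells received IPTG as well. HOXA9 OFF cells were taken out of estradiol, which was at 150 ng/ml in the medium of the line, and the study uses this condition as the normal route to neutrophils. All 3 groups share the HOXA9 fusion, the reporter, the strain and SCF. The labels give neither the clone nor the hairpin vector behind each library. Clone and vector therefore cannot be told apart from the treatment in any comparison, that of CAF-1 OFF with control included. For HOXA9 OFF the labels do not mention IPTG, so IPTG cannot be told apart from the treatment there either. They also do not say that the 2 libraries of a group came from separate cultures. The supplement of the study mentions independent sub-clones for RNA-seq at a later time, without tying them to these libraries, so p-values measure the spread between these libraries, which may be technical.

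Between 16773560 and 25170898 reads were assigned to genes per library, and 3 counts corresponded to 0.118 to 0.182 CPM, that is, counts scaled to a common library size. Chaf1b had 17.8 and 12.1 CPM with its hairpin on, 90.0 and 105 CPM in control and 64.6 and 61.4 CPM in HOXA9 OFF (log2 fold change -2.71 ± 0.20 for CAF-1 OFF against control, SE, edgeR FDR 0.0198). Genes of granulocyte-macrophage progenitors were present in every library, with Cd34, Kit, Flt3, Fcgr3, Csf3r and Myb summing to between 3638 and 3832 CPM in control.

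Because GATA factors are known regulators of mast cell and basophil genes, the 250 bases before the RefSeq start of each member were searched for the GATA word. An entry existed for 9 of the 10 members, all but Prg2, and each sequence was found once, without a mismatch, in NCBIM37 (mm9). Gata2 had a further RefSeq start 4773 bp from its annotated gene start, so 10 sequences were searched. For Hdc the RefSeq start lay 621 bp from the gene start given below. The word, AGATAA or TGATAA on either strand, was present in 4 of these 9 members, against 16.6% of 32851 RefSeq promoters cut to the same 250 bases. It was present upstream of both IgE receptor genes and of the proteases Cpa3 and Prss34, and absent from the windows of Gata2, Hdc, Mcpt8, Cma1 and Epx. The C/EBP word TTGCNNAA was found in 1 of the 9 (Fcer1a, apart from its GATA word) and in 9.56% of all, and the ETS word CGGAAG in 0 of the 9 and in 13.6% of all. The 4 windows that hold the GATA word are shown, followed by that of Epx, the member with the largest change below, which holds none. The intervals are chr19:11698210-11698459 (minus strand) for Ms4a2, chr3:20142081-20142330 (minus) for Cpa3, chr17:25435089-25435338 (plus) for Prss34, chr1:175157361-175157610 (minus) for Fcer1a and chr11:87689039-87689288 (minus) for Epx. Each reads 5′ to 3′ toward the start, with the GATA word in capitals.
Ms4a2: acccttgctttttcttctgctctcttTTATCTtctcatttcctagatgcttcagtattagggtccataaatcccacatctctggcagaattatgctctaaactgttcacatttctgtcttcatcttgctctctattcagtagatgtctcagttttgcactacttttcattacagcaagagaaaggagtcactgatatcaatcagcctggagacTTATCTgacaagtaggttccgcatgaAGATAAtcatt
Cpa3: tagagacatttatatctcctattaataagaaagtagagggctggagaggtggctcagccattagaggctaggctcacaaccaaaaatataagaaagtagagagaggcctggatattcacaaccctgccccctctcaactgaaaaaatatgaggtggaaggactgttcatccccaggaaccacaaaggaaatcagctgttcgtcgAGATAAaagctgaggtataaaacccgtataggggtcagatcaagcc
Prss34: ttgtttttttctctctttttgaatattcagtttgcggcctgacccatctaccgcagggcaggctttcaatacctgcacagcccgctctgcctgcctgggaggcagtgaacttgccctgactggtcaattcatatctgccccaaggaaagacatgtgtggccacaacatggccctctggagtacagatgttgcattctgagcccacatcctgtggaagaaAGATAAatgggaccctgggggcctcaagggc
Fcer1a: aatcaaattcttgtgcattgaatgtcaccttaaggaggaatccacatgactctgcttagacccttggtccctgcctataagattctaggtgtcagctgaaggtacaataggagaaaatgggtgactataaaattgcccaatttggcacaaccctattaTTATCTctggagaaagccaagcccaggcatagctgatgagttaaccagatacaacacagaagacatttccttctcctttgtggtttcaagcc
Epx: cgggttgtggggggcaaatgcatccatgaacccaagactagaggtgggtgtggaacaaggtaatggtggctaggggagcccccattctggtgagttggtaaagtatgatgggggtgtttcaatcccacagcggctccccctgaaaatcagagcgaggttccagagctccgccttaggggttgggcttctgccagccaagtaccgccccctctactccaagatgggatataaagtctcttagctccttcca

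In Ms4a2 the 3 words began 224, 37 and 11 bases before the start. In Prss34, Cpa3 and Fcer1a the single word began 31, 46 and 92 bases before it. A word of these letters is a description of the window and was not tested for binding.

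The first question was which of these genes moved when HOXA9 was switched off. In HOXA9 OFF against control, 3 of the 9 tested members rose and 0 fell, whereas 22.0% of all tested genes changed and 13.0% rose. The 3 were both eosinophil granule genes, Epx and Prg2, and the histamine enzyme gene Hdc. Both libraries of HOXA9 OFF lay above both controls for 4 of the 9, these 3 and Cpa3, and for 35.1% of all tested genes. The transcription factor gene Gata2, the IgE receptor gene Ms4a2 and the 4 protease genes did not pass the test. Calls required a 1.5-fold change and a false discovery rate (FDR) under 0.05 in the edgeR quasi-likelihood test, computed over all 12460 genes. Every tested member had at least 30 counts in each control library, so none passed the filter through HOXA9 OFF alone. As these are bulk libraries, more or fewer cells of a type and more or less RNA per cell cannot be told apart.

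Epx (chromosome 11, 87677502 to 87689038, minus strand, protein coding) encodes eosinophil peroxidase. Control libraries had 4.87 and 1.92 CPM of it, CAF-1 OFF libraries 4.10 and 6.38 CPM and HOXA9 OFF libraries 235 and 137 CPM. The HOXA9 OFF libraries lay far above the other 4, and control and CAF-1 OFF overlapped. The log2 fold change of HOXA9 OFF over control was 5.72 ± 0.47 (SE, edgeR FDR 0.000663), a 52.6-fold rise. Epx ends 197 bp from Mks1, a gene of the primary cilium, whose log2 difference between HOXA9 OFF and control was 0.19 ± 0.20 (edgeR FDR 0.505). Lpo, a peroxidase gene of the same cluster 35711 bp from Epx, rose by 2.41 ± 0.42 (edgeR FDR 0.00738) but stayed low, at a mean of 1.90 CPM. Mpo, the neutrophil peroxidase gene of this cluster, was at 163866 and 70774 counts in control and 177133 and 110069 counts in HOXA9 OFF, a log2 difference of 0.53 ± 0.22 (edgeR FDR 0.112).

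Prg2 (chromosome 2, 84820618 to 84823789, plus strand, protein coding) encodes major basic protein, the core protein of the eosinophil granule. Control libraries had 933 and 582 CPM, CAF-1 OFF libraries 1145 and 979 CPM and HOXA9 OFF libraries 4927 and 3560 CPM. It was thus abundant already in control, and the 3 groups did not overlap. Prg2 rose 5.60-fold in HOXA9 OFF, a log2 difference of 2.49 ± 0.26 (SE, edgeR FDR 0.00142). Prg3, a near relative that lies 4564 bp away and encodes another major basic protein, went from 279 and 258 CPM in control to 1465 and 1094 CPM once HOXA9 was off (2.25 ± 0.15 on the log2 scale, edgeR FDR 0.000437). Other neighbours behaved otherwise. Slc43a3, a transporter gene 21952 bp away on the other side of Prg2, differed by 0.20 ± 0.11 (edgeR FDR 0.204), and P2rx3, which encodes an ATP-gated channel and lies beyond Prg3, 14951 bp away, fell (log2 fold change -2.46 ± 0.16, edgeR FDR 0.000332).

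Hdc (chromosome 2, 126419403 to 126445035, minus strand, protein coding) encodes histidine decarboxylase. Its levels were 58.9 and 38.5 CPM for control, 64.3 and 42.7 CPM for CAF-1 OFF and 244 and 201 CPM for HOXA9 OFF. Both HOXA9 OFF libraries exceeded the other 4, among which the groups overlapped. The log2 fold change in HOXA9 OFF was 2.19 ± 0.27 (SE, edgeR FDR 0.00219), or 4.56-fold. By contrast Slc18a2, which encodes the transporter that loads histamine into vesicles, had 186 and 182 CPM in control against 121 and 161 CPM with HOXA9 off (-0.39 ± 0.17 on the log2 scale, edgeR FDR 0.125).

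Gata2 (chromosome 6, 88143885 to 88157024, plus strand, protein coding) had similar levels in the 3 groups. Its 6 libraries ranged from 75.9 to 104 CPM, both extremes being CAF-1 OFF libraries, and all 3 groups overlapped. The log2 difference from control was 0.06 ± 0.16 for HOXA9 OFF (edgeR FDR 0.817) and 0.14 ± 0.16 for CAF-1 OFF (edgeR FDR 0.802). Gata1, the partner GATA factor of eosinophil, mast cell and erythroid development, went from 4.75 and 2.44 CPM in control to 15.5 and 10.1 CPM with HOXA9 off (1.81 ± 0.45 on the log2 scale, edgeR FDR 0.0252).

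The IgE receptor was measured in part. Fcer1a (chromosome 1, 175151402 to 175157360, minus strand), the IgE-binding alpha chain, had 0 counts in all 4 control and CAF-1 OFF libraries and 1 and 2 counts in HOXA9 OFF, and it was not tested. At these depths 0 counts allow a level of up to 0.118 to 0.174 CPM, counting error only. Ms4a2 (chromosome 19, 11690013 to 11698209, minus strand), the beta chain, was detected in every library, at 9.35 and 3.89 CPM (control), 11.1 and 6.99 CPM (CAF-1 OFF) and 10.7 and 7.82 CPM (HOXA9 OFF), with overlap among all groups. Its log2 difference from control was 0.47 ± 0.44 in HOXA9 OFF (edgeR FDR 0.454). The gamma chain gene Fcer1g, which also serves other Fc receptors, stood at 114 to 224 CPM across the 6 libraries and was not called in HOXA9 OFF (0.32 ± 0.23 on the log2 scale, edgeR FDR 0.341). Ms4a2 lies beside Ms4a3, a myeloid relative 5778 bp away that rose after estradiol withdrawal (log2 fold change 1.31 ± 0.25, edgeR FDR 0.00994), and beside Ms4a6d, 10674 bp away on the other side, which did too (3.09 ± 0.33, edgeR FDR 0.00151).

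Of the 4 protease genes, Cpa3 and Mcpt8 were the more abundant. Cpa3 (chromosome 3, 20115516 to 20142080, minus strand), the carboxypeptidase of mast cell granules, was at 158 and 128 CPM in control and 204 and 276 CPM in HOXA9 OFF. Both HOXA9 OFF libraries were above both controls, but the gene was not called (log2 fold change 0.75 ± 0.41, SE, edgeR FDR 0.216). A fit to only the 4 libraries compared did call it (0.74, edgeR FDR 0.0241), and so did a fit with no expression filter (0.74, edgeR FDR 0.00343), which called 16.2% of 19883 genes. Mcpt8 (chromosome 14, 56701003 to 56704053, minus strand), a basophil serine protease, was at 34.8 and 32.6 CPM in control and 25.0 and 21.9 CPM in HOXA9 OFF. Both HOXA9 OFF libraries were below both controls, and the difference did not pass the test (log2 fold change -0.52 ± 0.37, edgeR FDR 0.332).

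Prss34 (chromosome 17, 25435339 to 25437106, plus strand), another basophil protease gene, and Cma1 (chromosome 14, 56560290 to 56563498, minus strand), a mast cell chymase gene, were low. Prss34 counts were 98 and 32 in control, 98 and 10 for CAF-1 OFF and 68 and 23 for HOXA9 OFF. Cma1 counts were 111 and 30 in control, 58 and 29 for CAF-1 OFF and 158 and 32 for HOXA9 OFF. For both genes all 3 groups overlapped. The log2 difference between HOXA9 OFF and control was -0.29 ± 0.93 for Prss34 (edgeR FDR 0.848) and 0.64 ± 0.72 for Cma1 (edgeR FDR 0.54). Cma1 and Mcpt8 lie in the chymase cluster of chromosome 14 and have close relatives whose reads may not be separable. Within this cluster Ctsg, the neutrophil cathepsin G gene 14665 bp from Mcpt8, fell under HOXA9 OFF (log2 fold change -0.68 ± 0.12, edgeR FDR 0.00778), while Mcpt4, Mcpt2 and Mcpt1 had at most 2 counts in any library.

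**Figure D1:**
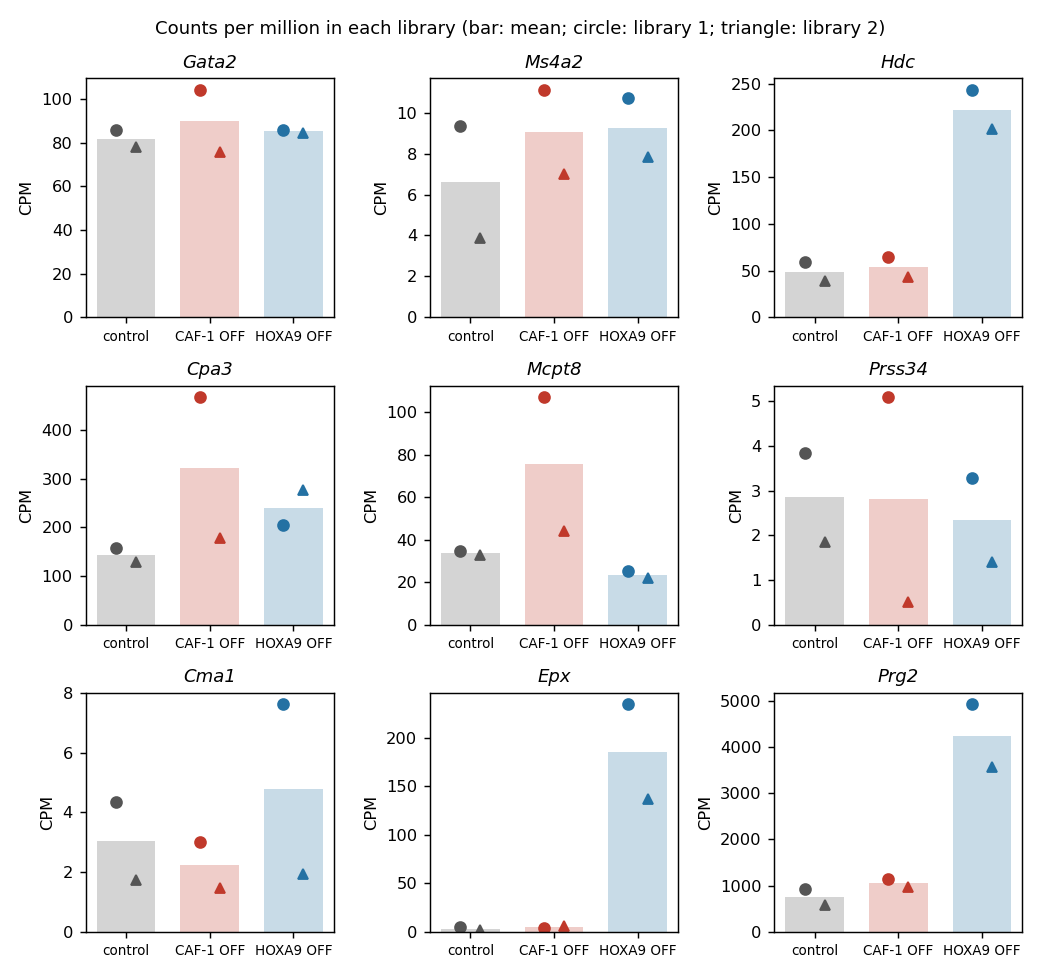
CPM (y axis, linear from 0, a separate scale for each gene) of the 9 tested members in control, CAF-1 OFF and HOXA9 OFF, with bars for the mean of 2 libraries, circles for library 1 and triangles for library 2. Hdc, Epx and Prg2 are high in both HOXA9 OFF libraries, Cpa3 and Mcpt8 are highest in CAF-1 OFF library 1 (468 and 107 CPM), and the 6 Gata2 values lie between 75.9 and 104 CPM.

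The second question was whether losing CAF-1 moved the same genes within 24 h. In CAF-1 OFF against control, 0 of the 9 tested members were called by edgeR, where 0.0321% of all tested genes passed, and 0 by DESeq2, where 1.54% passed. At an unadjusted p under 0.05 there were 2 members, Mcpt8 and Cpa3, both higher in CAF-1 OFF, and 1330 of the 12460 genes. Their groups did not overlap, which also held for Prg2, and 20.1% of all genes were higher in CAF-1 OFF without overlap. The median log2 fold change was 0.44 over the 9 members and -0.0044 over all genes, and 7 of the 9 members had a positive value.

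Mcpt8 stood at 107 and 44.1 CPM in CAF-1 OFF against 34.8 and 32.6 CPM in control. Both CAF-1 OFF libraries were above both controls, but library 1 was far above library 2. The log2 fold change of 1.16 ± 0.37 (SE) had an edgeR FDR of 0.342, against 0.057 by DESeq2 and 0.0849 by the edgeR exact test. Without CAF-1 OFF library 1 it fell to 0.38, and without library 2 it was 1.68.

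Cpa3 showed the same arrangement, with 468 and 178 CPM in CAF-1 OFF against 158 and 128 CPM in control. Its log2 fold change was 1.17 ± 0.41 (SE, edgeR FDR 0.385), falling to 0.31 without CAF-1 OFF library 1 and reaching 1.73 without library 2. With no expression filter, both Mcpt8 (edgeR FDR 0.000131) and Cpa3 (edgeR FDR 9.07e-05) were called, alongside 1.9% of the 19883 genes then tested. Their estimated difference thus rested largely on CAF-1 OFF library 1.

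The eosinophil genes and Hdc had smaller estimates than Mcpt8 and Cpa3, and none of them was called. Prg2 had a log2 fold change of 0.49 ± 0.25 (SE, edgeR FDR 0.542), with 1145 and 979 CPM in CAF-1 OFF above the 933 and 582 CPM of control. Epx had 0.57 ± 0.48 (edgeR FDR 0.727) and Hdc 0.13 ± 0.26 (edgeR FDR 0.898), each with overlapping groups. Leaving out 1 library gave log2 values from 0.12 to 1.45 for Epx and from 0.20 to 0.87 for Prg2. Ms4a2 gave 0.44 ± 0.44 (edgeR FDR 0.772), Prss34 -0.04 ± 0.93 (edgeR FDR 0.995) and Cma1 -0.46 ± 0.74 (edgeR FDR 0.871).

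**Figure D2:**
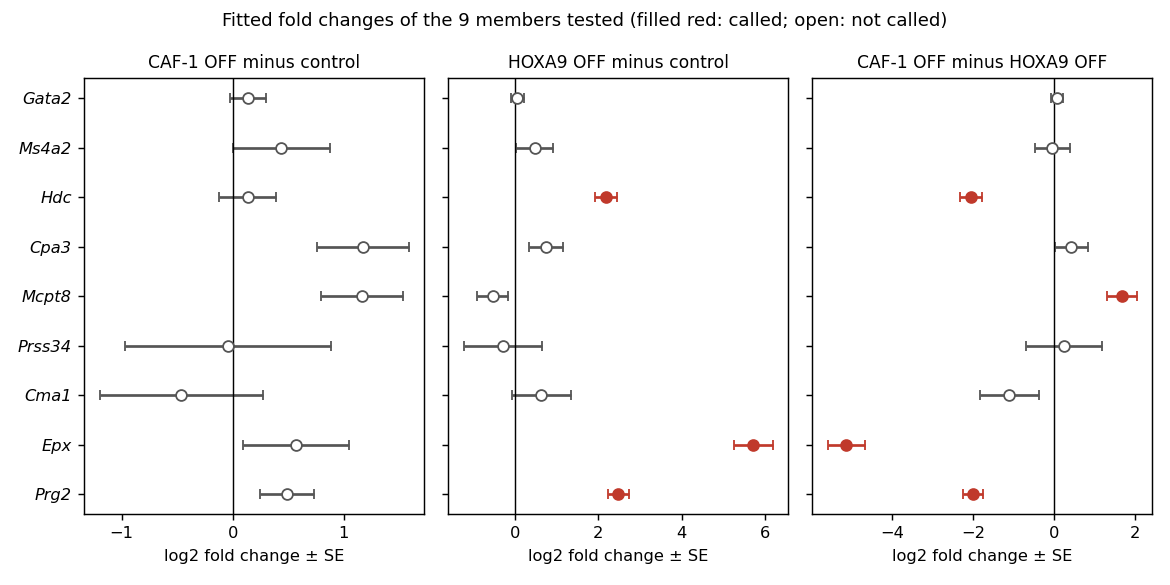
Fitted log2 fold changes with SE (x axis) of the 9 tested members (y axis) for CAF-1 OFF minus control, HOXA9 OFF minus control and CAF-1 OFF minus HOXA9 OFF, with called members as filled red points. No member is called in the first panel, Hdc, Epx and Prg2 are called to the right in the second, and in the third Mcpt8 is called to the right (1.69) and Hdc, Epx and Prg2 to the left.

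CAF-1 OFF and HOXA9 OFF were then compared directly. The comparisons with control share the control libraries, so their values above are set side by side only. Of the 9 members, 4 were called in CAF-1 OFF against HOXA9 OFF, against 22.1% of all tested genes. Mcpt8 was the 1 member higher in CAF-1 OFF (9.56% of all genes), and Hdc, Epx and Prg2 were the 3 that were lower (12.6% of all genes).

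Between these 2 groups Mcpt8 was 3.22-fold higher in CAF-1 OFF, a log2 difference of 1.69 ± 0.38 (SE, edgeR FDR 0.0172). The groups did not overlap, with 107 and 44.1 CPM against 25.0 and 21.9 CPM. Without CAF-1 OFF library 1 the value was 0.91, and the call was lost without HOXA9 OFF library 1 (1.80, edgeR FDR 0.0672) or library 2 (1.60, edgeR FDR 0.0773).

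Epx was 35.4-fold lower in CAF-1 OFF (a log2 difference of -5.15 ± 0.46, SE, edgeR FDR 0.000957). Hdc was 4.16-fold lower (-2.06 ± 0.26, edgeR FDR 0.00283) and Prg2 4.0-fold lower (-2.0 ± 0.25, edgeR FDR 0.00276). Cpa3, at 468 and 178 CPM against 204 and 276 CPM, overlapped and was not called (0.43 ± 0.41, edgeR FDR 0.472). Without CAF-1 OFF library 2, however, it was called (0.98, edgeR FDR 0.0213), and without library 1 its sign turned (-0.43).

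Levels of different members were compared per kilobase of annotated exon, with each exon base of any transcript of a gene counted once. This length was 6389 bp for Hdc and 2737 bp for Epx, and the order of the genes depends on it. In control, Prg2 was by far the highest, at 904 ± 296 CPM per kb (SD, n = 2), followed by Cpa3 at 98.6 ± 14.6, Mcpt8 at 39.4 ± 1.80, Gata2 at 24.4 ± 1.61 and Hdc at 7.62 ± 2.26 CPM per kb. The libraries of these 5 did not overlap from one gene to the next. Cma1, Ms4a2, Prss34 and Epx followed at 2.84 ± 1.72, 2.40 ± 1.40, 2.35 ± 1.16 and 1.24 ± 0.763 CPM per kb, and these 4 overlapped.

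In CAF-1 OFF the first 5 kept this order, with Prg2 at 1267 ± 140, Cpa3 at 222 ± 141, Mcpt8 at 88.4 ± 52.1, Gata2 at 26.9 ± 6.00 and Hdc at 8.38 ± 2.39 CPM per kb, although Cpa3 library 2 fell below Mcpt8 library 1. In HOXA9 OFF, Epx moved from last to the third place, at 67.9 ± 25.2 CPM per kb, after Prg2 at 5064 ± 1153 and Cpa3 at 165 ± 35.0. Hdc came next at 34.8 ± 4.69, above Mcpt8 at 27.4 ± 2.52 and Gata2 at 25.5 ± 0.339 CPM per kb, of which the last 2 overlapped. Prg2 alone made up 67.0% to 72.1% of the summed CPM of the 10 members in control, 59.9% and 73.3% for CAF-1 OFF, and 85.8% and 82.9% for HOXA9 OFF.

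**Figure D3:**
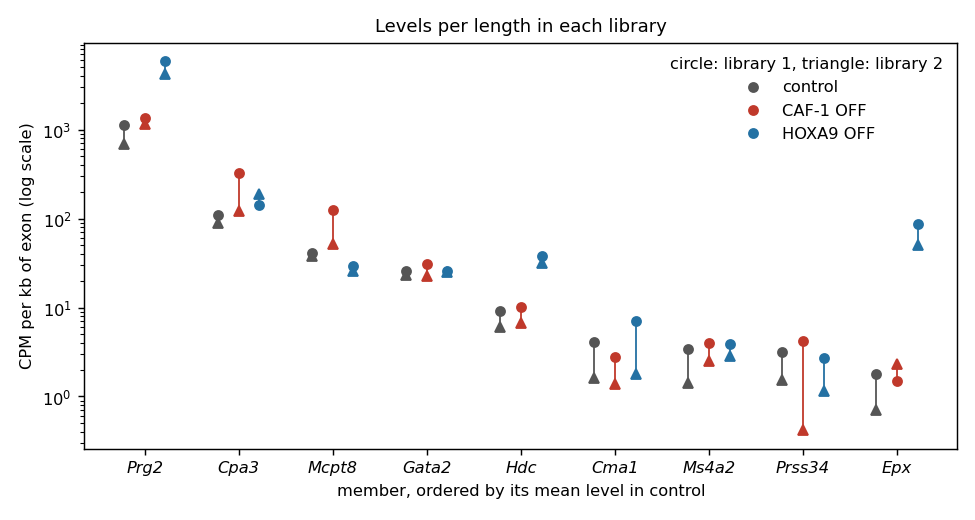
CPM per kilobase of annotated exon (y axis, log scale) for each tested member (x axis, ordered by its mean in control), with circles for library 1, triangles for library 2 and a line between them. Prg2 is highest in every group, and Epx moves from the lowest position in control to 50.1 and 85.8 CPM per kb in HOXA9 OFF.

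The libraries of a group differed in a recurring way for these genes. In 7 of the 9 tested members, library 1 was above library 2 in all 3 groups, compared with 12.2% of all tested genes. The exceptions were Cpa3, lower in library 1 of HOXA9 OFF, and Epx, lower in library 1 of CAF-1 OFF. The gap was widest for Prss34 in CAF-1 OFF, 8.56-fold after adding 0.1 CPM to both libraries (98 and 10 counts), and narrowest for Gata2 in HOXA9 OFF, 1.02-fold. Other lists shared it in part, with 7 of 14 receptor genes of these lineages, 3 of 5 other mast cell and basophil granule genes, 4 of 5 neutrophil primary and 5 of 8 late granule genes. It was held by 3 of 15 transcription factor, 1 of 4 other eosinophil granule, 2 of 9 mediator, 1 of 6 monocyte and macrophage, 1 of 7 megakaryocyte and erythroid and 1 of 6 progenitor genes, and by 0 of 13 IgE receptor signalling genes. What sets the numbered libraries apart was not tested.

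**Figure D4:**
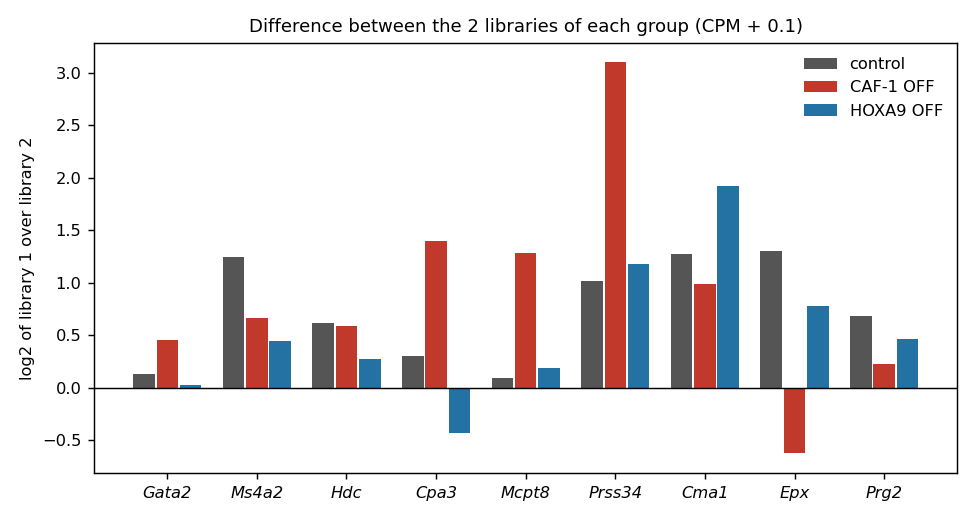
Log2 ratio of library 1 to library 2 in CPM with 0.1 added (y axis) for each tested member (x axis) in control, CAF-1 OFF and HOXA9 OFF. Bars lie above 0 in all 3 groups for 7 members, and the exceptions are Cpa3 in HOXA9 OFF and Epx in CAF-1 OFF.

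Other genes of the same lineages were read from 6 lists. Of 85 genes, 82 had a symbol in the counts and 60 were tested. Of these 60, Ear6 and Tpsb2 passed the filter only with the HOXA9 OFF libraries counted. Among the other 58, 29 rose and 6 fell in HOXA9 OFF against control, where 13.0% of all tested genes rose and 8.97% fell, and their median log2 fold change was 0.74 against -0.0035 over all genes. When CAF-1 was off, 0 of the 60 were called by the edgeR quasi-likelihood test (0.0321% of all genes). DESeq2 and the edgeR exact test each called Cebpe, Csf2rb, Csf2rb2, Id1 and Ikzf2 higher, beside 1.54% and 1.95% of all genes; Cebpe, Csf2rb2 and Id1 are named here after their values were seen. In the quasi-likelihood test 12 of the 60 had an unadjusted p under 0.05 (1330 of all 12460 genes), and the median was 0.17.

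Among 15 lineage transcription factor genes, 9 rose and 2 fell in HOXA9 OFF. The largest changes with a mean of at least 1 CPM were those of Id2, an inhibitor of helix-loop-helix factors (log2 fold change 3.31 ± 0.33, edgeR FDR 0.00124), Mitf, a mast cell factor (2.09 ± 0.29, edgeR FDR 0.00355), and Gata1. Mitf had 2.04 and 1.86 CPM in control and 7.29 and 9.40 CPM in HOXA9 OFF. In CAF-1 OFF none was called by the quasi-likelihood test, and the smallest unadjusted p belonged to Ikzf2, a zinc finger factor gene (1.47 ± 0.26, edgeR FDR 0.153), at 49.8 and 46.2 CPM against 21.6 and 12.7 CPM.

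Of the growth factor, cytokine and surface receptor genes, 14 of 20 were tested, and 9 rose and 1 fell in HOXA9 OFF. Il5ra, the interleukin 5 receptor of the eosinophil lineage, rose from 2.16 and 1.34 CPM to 19.9 and 19.4 CPM (log2 fold change 3.46 ± 0.36, edgeR FDR 0.00138). Adora3, an adenosine receptor gene (3.80 ± 0.30, edgeR FDR 0.000579), and Cd200r3, a receptor gene of basophils and mast cells (3.90 ± 0.38, edgeR FDR 0.00118), moved with it. The 1 gene that fell was Kit, the SCF receptor, from 710 and 542 CPM to 300 and 262 CPM (-1.16 ± 0.16, edgeR FDR 0.00366), named after its value was seen. Il1rl1, the interleukin 33 receptor of mast cells and basophils, also named afterwards, had a log2 difference of 0.35 ± 0.45 (edgeR FDR 0.59). In CAF-1 OFF the smallest p was that of Csf2rb, the beta chain that receptors for interleukin 3, interleukin 5 and GM-CSF share (0.71 ± 0.11, edgeR FDR 0.152). Its levels there were 238 and 230 CPM against 155 and 131 CPM in control.

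Of the 11 other eosinophil granule genes, 8 were in the counts and 4 were tested. Prg3, Ear2 and Alox15 rose in HOXA9 OFF. Ear6 passed the expression filter through the HOXA9 OFF libraries alone, so its direction was fixed by being tested. The Ear genes encode eosinophil-associated RNases and are near-identical copies, so their counts are uncertain one by one. Ear6 had 0 and 1 counts in control and 273 and 88 counts in HOXA9 OFF, at least 63.4-fold higher against a floor of 3 counts per library. Ear2 had 29 and 3 counts in control and 434 and 148 counts in HOXA9 OFF (4.40 ± 0.77 on the log2 scale, edgeR FDR 0.00744). In CAF-1 OFF, Prg3 had the smallest p (0.57 ± 0.15, edgeR FDR 0.279).

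Of the 12 other mast cell and basophil granule genes, 5 were tested, and 1 of them, Ctse, rose in HOXA9 OFF. Ctse encodes the aspartic protease cathepsin E and went from 0.864 and 0.522 CPM to 17.8 and 6.67 CPM (log2 fold change 4.10 ± 0.56, edgeR FDR 0.00317). Among the mast cell protease genes listed, Mcpt4, Mcpt9 and Tpsab1 had 0 counts in all 6 libraries and Mcpt1 and Mcpt2 at most 2. The tryptase genes Tpsb2 and Tpsg1 were low but detected, at 3 to 28 and 0 to 17 counts. In CAF-1 OFF the smallest p was that of Slc18a2 (0.22 ± 0.17, edgeR FDR 0.695).

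All 13 IgE receptor signalling genes were tested, and 5 rose and 2 fell in HOXA9 OFF. The adaptor gene Lcp2 rose (log2 fold change 2.27 ± 0.32, edgeR FDR 0.00365), whereas Fyn, a Src family kinase gene (-1.04 ± 0.22, edgeR FDR 0.0138), and Plcg1, a phospholipase gene (-0.86 ± 0.14, edgeR FDR 0.00532), fell. In CAF-1 OFF the smallest p was that of the kinase gene Btk (-0.26 ± 0.10, edgeR FDR 0.438). Of 9 mediator genes tested, 2 rose and 1 fell in HOXA9 OFF. Alox5ap and Ptgs1, which serve leukotriene and prostaglandin synthesis, rose by 1.41 ± 0.18 (edgeR FDR 0.00262) and 0.87 ± 0.13 (edgeR FDR 0.00389), and the cytokine gene Il6 fell by 2.09 (SE 0.39, edgeR FDR 0.0094). The cytokine gene Osm had the smallest p in CAF-1 OFF (0.60 ± 0.26, edgeR FDR 0.474). Il4, Il5 and Il13, the cytokines typical of activated basophils and mast cells, had at most 5 counts in any library.

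**Figure D5:**
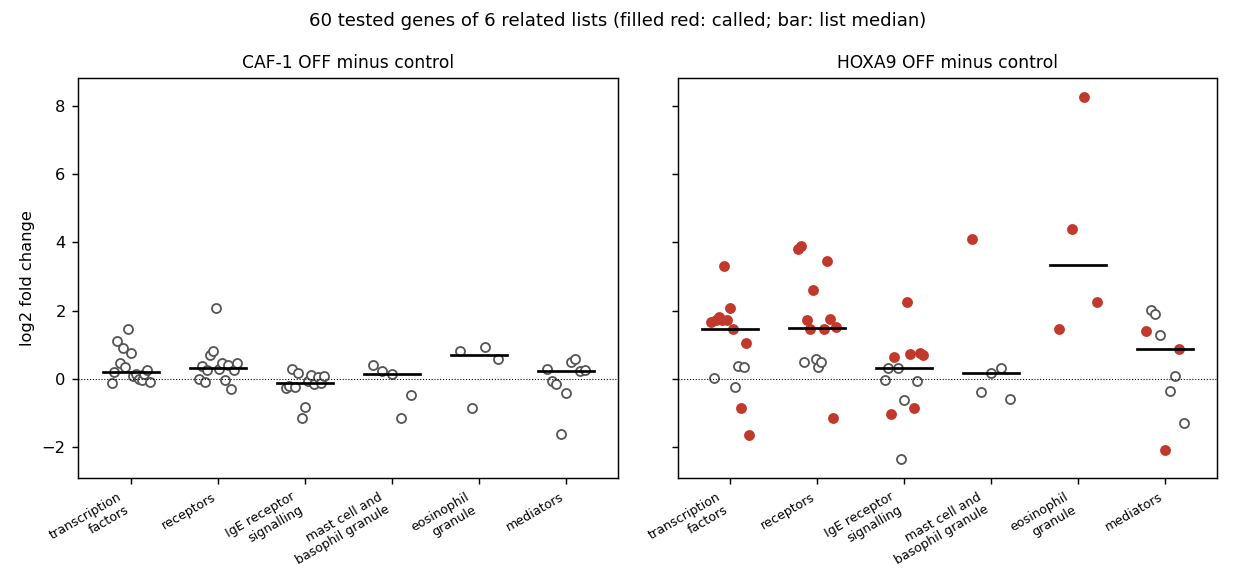
Log2 fold changes (y axis) of the 60 tested genes of 6 related lists (x axis) in CAF-1 OFF minus control and HOXA9 OFF minus control, with called genes as filled red points and the list median as a bar. No gene is called in CAF-1 OFF by the edgeR quasi-likelihood test plotted here, whereas with HOXA9 OFF the eosinophil granule genes are called higher, among them Ear6, which was tested through its HOXA9 OFF counts alone.

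Markers of other myeloid cells were read beside the members. In HOXA9 OFF, 7 of 8 neutrophil late granule genes and all 6 tested monocyte and macrophage genes rose, and 1 of 5 neutrophil primary granule genes rose while 1 fell, where 13.0% of all tested genes rose and 8.97% fell. The late granule genes summed to 827 and 463 CPM there, 432 and 695 CPM with CAF-1 off and 109 and 99.7 CPM in control. The collagenase gene Mmp8 made up most of the CAF-1 OFF sums, at 332 and 630 CPM, against 56.6 and 62.0 CPM with HOXA9 off, and was called higher in CAF-1 OFF in the direct comparison (3.02 ± 0.37 on the log2 scale, edgeR FDR 0.00235). Without it the other 7 summed to 771 and 401 CPM with HOXA9 off, 99.8 and 64.6 CPM with CAF-1 off and 38.5 and 59.3 CPM in control, and that comparison called all 7 lower in CAF-1 OFF. The monocyte and macrophage genes summed to 736 and 732 CPM with HOXA9 off, 171 and 276 CPM with CAF-1 off (102 and 150 CPM of it Ly6c2, a monocyte surface antigen gene) and 117 and 73.0 CPM in control. In HOXA9 OFF, 2 of 7 tested megakaryocyte and erythroid genes rose. Of the 6 progenitor genes, 4 fell and 2 rose there, and they summed to 1768 and 1656 CPM against 3832 and 3638 CPM in control. With CAF-1 off, 0 genes of these lists were called by the edgeR quasi-likelihood test (0.0321% of all genes). DESeq2 (1.54% of all genes) and the edgeR exact test (1.95%) each called Ms4a3, Mmp8, S100a8, S100a9, Ly6c2, Gfi1b and Pf4 higher, all named after their values were seen. In the quasi-likelihood test 1330 of 12460 genes had an unadjusted p under 0.05. Below that level, all higher in CAF-1 OFF, were 4 of the 8 late granule genes, 3 of 5 primary granule, 2 of 6 monocyte and macrophage and 4 of 7 megakaryocyte and erythroid genes, and 0 of the 6 progenitor genes. The part of these cell types in the members' levels was not tested.

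For Prg2, Cpa3 and Hdc, the members with the highest mean CPM over all 6 libraries (2021, 235 and 108.2 CPM, HOXA9 OFF included), the tested genes with the most similar profile over the 6 libraries were sought by the root mean square (RMS) difference of centred log2 CPM among 9614 genes. Nearest to Prg2 were Chst15 (0.12), a sulfotransferase gene, Ltb4r1 (0.16), the leukotriene B4 receptor gene, and C130050O18Rik (0.17). Nearest to Hdc were Fes (0.18), a myeloid tyrosine kinase gene, C130050O18Rik (0.19) and BC013712 (0.20). Nearest to Cpa3, less closely, were Abcb9 (0.21), Ifi47 (0.26) and Slc2a3 (0.29). Ltb4r1, for example, had 54.8 and 34.9 CPM in control, 79.9 and 69.6 CPM after CAF-1 loss and 274 and 187 CPM after HOXA9 loss. These RMS values are a description over 6 libraries that share the group means of HOXA9 OFF.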

How the data were processed

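RNA-seq was analysed in 6 libraries of mouse iGMPs, grouped by their titles into CAF-1 OFF, control and HOXA9 OFF (2 each). Per the labels and the methods of the study, the authors aligned reads to mm9 with STAR and counted them per gene symbol with HTSeq, and the deposited values were raw counts. The library kit keeps strand, but the strand setting, annotation and overlap mode of the counting were not given in the sources used here. The 5 tally lines were left out. Library totals ranged from 16773560 to 25170898 gene counts, and intervals or floors cover counting error only.

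Counts were fitted in R 4.3.3 with edgeR 4.0.16 (quasi-likelihood test, TMM scaling, filterByExpr by group, all 6 libraries, 1 mean per group), and calls needed a 1.5-fold change and a Benjamini-Hochberg FDR under 0.05, as in the methods of the study. CPM use TMM-scaled library sizes, spreads are SD over 2 libraries, and SE of log2 fold changes come from the F statistic. The script was tested on simulated data. Alternatives were DESeq2 1.42.0, the exact test, other scalings and filters, a replicate block, stricter cutoffs and leaving out each library.

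The members and all gene lists were chosen with earlier results of these data known. Named genes are the 10 members, in each related list the 3 called genes with the largest change in HOXA9 OFF (mean of at least 1 CPM) and the gene with the smallest unadjusted p in CAF-1 OFF, and the 3 most similar profiles to each of the 3 members with the highest mean CPM over the 6 libraries (mean of at least 5 CPM). Neighbours of members, marker genes and further list genes are also named in the text outside this rule, and some neighbours that were called are not named. Siglecf, Ptgdr2 and Adgre1 were found under older symbols. Coordinates and exon lengths are from GENCODE vM1 on NCBIM37, the assembly that mm9 names. No member overlapped another annotated gene. Upstream sequences are from RefSeq (GRCm38.p6) and were placed on NCBIM37 by exact match.

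Same-numbered libraries deviated from their group means with correlations of -0.178, 0.456 and 0.0329 across genes in the 3 comparisons. The main fit did not pair the libraries by number, although the 0.456, for HOXA9 OFF against control, was positive. Calls under a replicate block are given below.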

Additional observations from a re-analysis of the deposited data

How the results depend on the processing

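The 3 members called in HOXA9 OFF against control, and Hdc, Epx and Prg2 in CAF-1 OFF against HOXA9 OFF, were called under every alternative run. Over these, the log2 fold change against control ranged from 5.25 to 6.59 for Epx, 2.19 to 2.86 for Prg2 and 1.92 to 2.52 for Hdc. Of 327 member values under alternatives, 298 kept their direction and side of the threshold. For CAF-1 OFF against control, the members called were 2 with no filter. Related genes called were 5 by DESeq2, 5 by the exact test, 6 with no filter and 2 with crossed numbers. All genes called were 192 by DESeq2, 243 by the exact test, 378 with no filter, 9 in a fit to only the 4 libraries, 0 at 2-fold and FDR under 0.01, and 0 to 8 without 1 library. With 1 library left in a group, that library was assumed to vary like the other groups. All genes called in HOXA9 OFF against control were 987 at the stricter cutoffs and 1602 to 2128 without 1 library. For CAF-1 OFF against HOXA9 OFF they were 948 and 1711 to 2718, and related genes called were 20 at the stricter cutoffs. Why these counts differ was not tested.

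The replicate block left the members called at 0, 3 and 4 in the 3 comparisons, and calls over all genes at 2 for CAF-1 OFF against control. A block with crossed numbers, added after the data were seen, gave 71 genes called and 0 members there. Under the replicate block Prss34 reversed in CAF-1 OFF against HOXA9 OFF (-0.08). With library size alone, which moved the median of all genes by under 0.1, Gata2 reversed in HOXA9 OFF against control (-0.022) and Ms4a2 in CAF-1 OFF against HOXA9 OFF (0.041).

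Without 1 library, some of the members not called changed sign. For CAF-1 OFF against control the ranges were -0.11 to 0.37 for Gata2, -2.50 to 0.84 for Prss34, -0.036 to 1.22 for Ms4a2, -0.20 to 0.48 for Hdc and -1.07 to 0.37 for Cma1. In HOXA9 OFF against control they were -0.007 to 0.12 for Gata2, -1.05 to 0.34 for Prss34, -0.01 to 1.25 for Ms4a2 and -0.67 to 1.46 for Cma1. In CAF-1 OFF against HOXA9 OFF they were -0.17 to 0.31 for Gata2, -2.20 to 1.13 for Prss34, -0.43 to 0.98 for Cpa3, -0.41 to 0.28 for Ms4a2 and -1.77 to 0.22 for Cma1. Fcer1a, with at most 2 counts in any library, is limited by depth.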

Other observations

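Ccr3, the eotaxin receptor of mature eosinophils, was too low to test, with 0 counts in both control libraries, 8 and 3 in CAF-1 OFF and 2 and 1 in HOXA9 OFF. Hpgds, which encodes the prostaglandin D synthase of mast cells, differed widely between the libraries of control and of HOXA9 OFF, with 73 and 228 counts in control, 61 and 39 in CAF-1 OFF and 63 and 596 in HOXA9 OFF. Ear1 had 30 and 3 counts in HOXA9 OFF against 5 and 0 in control and was not tested. These 3 genes were chosen after their values were seen.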
